A study of Homo sapiens with 12 samples.

Results

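The genes described here are the canonical histone genes, the clustered genes whose names begin HIST1 to HIST4 and that are named for the linker histone H1 and the core histones H2A, H2B, H3 and H4. They were taken by name from the deposited table of 38516 genes, leaving out 9 names that end in PS and a digit. This gave 71 genes: 5 of H1, 16 of H2A, 20 of H2B, 15 of H3 and 15 of H4. RefSeq lists 67 of them as protein-coding and 4 as pseudogenes: HIST2H3DP1, HIST2H2BB, HIST2H2BC and HIST2H2BD. By name, 52 belong to the HIST1 cluster on chromosome 6, 15 to HIST2 and 3 to HIST3 on chromosome 1, and 1 to HIST4 on chromosome 12. By position, HIST2H3DP1 and HIST2H2BB lie on chromosome 1 away from the other HIST2 genes. RNA was sequenced from KYSE150 and KYSE510, 2 established human lines of esophageal squamous cell carcinoma (ESCC). Each line was compared as control cells and as cells in which HCP5, a long non-coding RNA, had been silenced, with 3 libraries for each of the 4 groups. The labels name neither the silencing agent nor a time, and do not say whether the replicates were separate cultures, so p-values measure the spread between these libraries, which may be technical.

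Canonical histones package newly made DNA, and in dividing cells most of their messages are made during S phase and destroyed at its end. These messages carry no introns and usually no poly(A) tail: they end a few bases after a short stem-loop, which the stem-loop binding protein SLBP holds. Some of the same genes also give longer messages with a poly(A) tail, mainly known from cells that leave the cycle or differentiate. Libraries made by poly(A) selection see mostly the second kind, and how RNA was selected for these libraries is not given in the sources used here.

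The stem-loop is shown for abundant genes whose annotated transcripts reach it and, as the example of H3, for HIST1H3H. In the GENCODE 29 transcripts, 34 of the 71 genes had a match to the histone stem-loop and 37 had none. Of all 206694 transcripts, 1157 (0.560%) had a match, and 1107 of these were transcripts of other genes. Most matches thus lay in transcripts of other genes, so a match alone does not identify a gene of this set. Counted by gene, matches were still far more frequent in this set than among all transcripts. Each sequence below has 26 bases in DNA letters, 5′ to 3′, on build GRCh38, with the 6 bases of each stem arm in capitals and the loop of 4 bases between them in lower case.
HIST1H2AC, chr6:26124664-26124689 on the plus strand: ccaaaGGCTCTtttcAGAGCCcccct
HIST2H2AA3, chr1:149842218-149842243 on the minus strand: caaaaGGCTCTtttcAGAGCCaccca
HIST3H2A, chr1:228457364-228457389 on the minus strand: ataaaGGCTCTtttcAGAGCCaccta
HIST1H2BC, chr6:26123467-26123492 on the minus strand: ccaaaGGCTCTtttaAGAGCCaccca
HIST1H2BD, chr6:26158582-26158607 on the plus strand: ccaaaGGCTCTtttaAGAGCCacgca
HIST1H3H, chr6:27810511-27810536 on the plus strand: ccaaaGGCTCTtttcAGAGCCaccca
HIST1H4I, chr6:27139649-27139674 on the plus strand: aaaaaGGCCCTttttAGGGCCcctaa
HIST2H4A, chr1:149833027-149833052 on the plus strand: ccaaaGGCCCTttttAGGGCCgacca
The H2A, H2B and H3 genes shown have the same stem arms, with tttc or ttta in the loop, and the H4 genes shown have another pair of arms. Of the 34 genes with a stem-loop, 25 had a transcript that ran on for 100 bases or more beyond it, for example by 1128 bases in HIST1H2AC, 390 in HIST3H2A and 212 in HIST1H4I. Among those 25, 18 had a transcript with AATAAA, the usual poly(A) signal, within its last 40 bases. HIST1H2BK and HIST1H1C, the most abundant genes, are annotated by GENCODE as 381 and 642 bases with no stem-loop, and the deposited table lists them with the same lengths. Other genes without a match also had short transcripts, such as 312 bases for HIST1H4K and 393 for HIST1H2AB. RefSeq places 75 and 134 bases of these 2 genes outside the listed span, and those bases were not searched. A gene without a match may therefore still have a stem-loop.

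Counts of whole reads could be recovered from every value, and each library held between 20035025 and 28202422 reads on genes. The 71 histone genes together took 0.00985% to 0.0279% of them, with 51 to 66 genes having a read in a given library. The 3 silenced KYSE150 libraries were all deeper than the 3 control libraries of that line. HCP5 itself had 0.779, 0.745 and 0.786 RPKM in control and 0.315, 0.418 and 0.579 in silenced KYSE150, with no overlap. In KYSE510 it had 0.914, 1.85 and 1.40 in control and 0.505, 0.951 and 0.948 in silenced cells, with overlap. The limma changes of -0.45 (SE 0.20, adjusted p = 0.267) and -0.53 (SE 0.20, adjusted p = 0.646) on the log2 scale did not pass, and HCP5 passed in the mean of both lines only with the replicate number as a block (adjusted p = 0.0295, against 0.185 without it). It was lower in 6 of 6 pairs of the same number. With voom its changes were -0.85 and -0.80, and without KYSE510 silenced replicate 1 the change in that line was -0.35. The squamous marker KRT5 was between 242 and 925 RPKM in the 4 group means, while 11 markers of fibroblasts, leukocytes and endothelium summed to 0.158 to 0.890 RPKM in each library, and COL1A1 was the only one of them above the filter. SOX2 and KRT4, also squamous markers, were at 0.160 and 0.0681 RPKM in control KYSE150.

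A few genes made up most of the histone signal. RPKM is a read count divided by exon length and library size, so it can be compared between genes, as far as the annotated lengths are right. Over all libraries 19 of the 71 genes had a mean of at least 1 RPKM, 14 were under 0.1 and 17 had at most 20 reads in all. HIST1H2BK, HIST1H1C, HIST1H4I and HIST1H2AC, the 4 genes with most reads, took 71.2% of all histone reads. The summed level in control KYSE150 was 140, 136 and 176 RPKM and in silenced KYSE150 188, 188 and 240. In KYSE510 it was 338, 311 and 300 in control and 422, 323 and 400 in silenced cells. Every library of KYSE510 was thus above every library of KYSE150, and each silenced library was above the control library of its replicate number. HIST1H2BK alone gave 36.8% to 52.8% of the sum in each library. Without HIST1H2BK every KYSE510 library was still above every KYSE150 library. The rise with silencing then no longer held in every pair. KYSE510 replicate 2 had 182 RPKM in control and 180 in silenced cells, while the other pairs still rose. In bulk RNA, fewer cells making a transcript and less transcript per cell cannot be told apart.

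**Figure D1:**
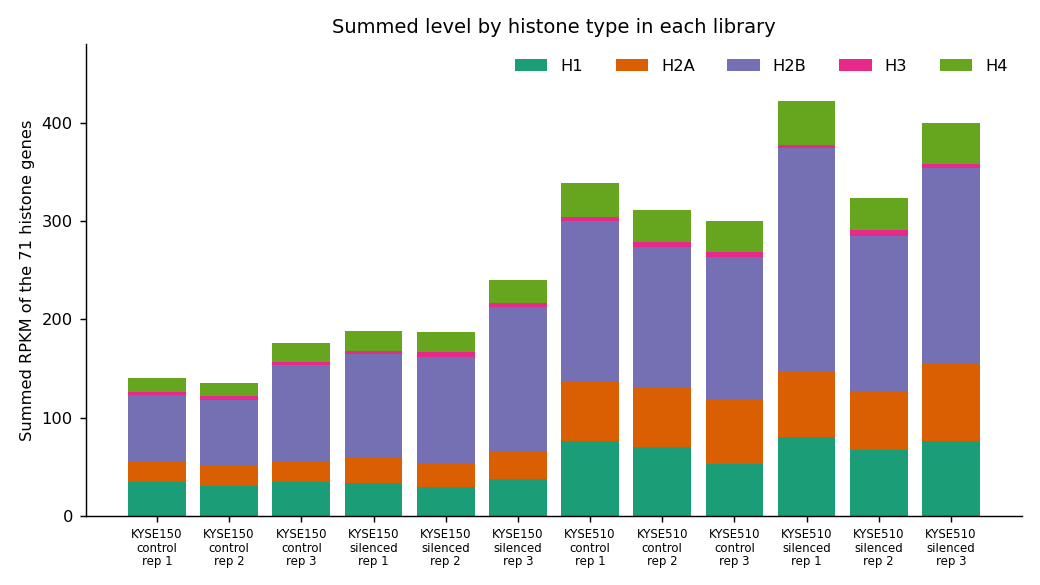
Summed RPKM of the 71 histone genes in each of the 12 libraries, stacked by histone type. H2B is the largest block in every library, H3 is a thin line throughout, and the bars of KYSE510 (300 to 422 RPKM) are all taller than those of KYSE150 (136 to 240 RPKM).

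The types were far from equal, although each nucleosome holds the core histones in equal amounts. In control KYSE150, H2B genes summed to 77.4 ± 18.5 RPKM, H1 to 33.4 ± 2.28, H2A to 20.9 ± 0.702, H4 to 15.4 ± 2.72 and H3 to 3.40 ± 0.344 (mean ± SD, n = 3, as for all such values here). In control KYSE510 the order was the same, with 151 ± 11.4 for H2B, 66.5 ± 12.1 for H1, 61.8 ± 2.34 for H2A, 33.2 ± 1.19 for H4 and 4.40 ± 0.980 for H3. H1 and H2A differed by less than their spread in KYSE510. H3 gave 2.30% of the histone sum in control KYSE150 and 1.41% in control KYSE510, and its highest gene, HIST1H3J, had a mean of 1.19 RPKM that rests on reads shared with a neighbour, as described below.

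Among the linker histones, HIST1H1C (chr6:26055787-26056428), which encodes a widely expressed somatic H1, was nearly alone. Its level was 30.6 ± 2.69 and 31.7 ± 4.27 RPKM in control and silenced KYSE150 and 63.5 ± 11.6 and 71.5 ± 6.27 in control and silenced KYSE510. HIST1H1E, another somatic H1, had 2.18, 2.84 and 2.69 RPKM in control and 1.77, 1.83 and 1.82 in silenced KYSE150, with no overlap. HIST1H1B, an H1 typical of dividing cells, was at 0.190 ± 0.151 RPKM in control KYSE150 and 1.60 ± 0.577 in control KYSE510. HIST1H1A had 2 reads and the testis-specific HIST1H1T 4 reads over all 12 libraries.

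Among the 16 H2A genes, 9 were under 1 RPKM on average. HIST1H2AC (chr6:26124145-26139116), known for a polyadenylated form, was the highest, at 8.95 ± 1.33 and 9.09 ± 0.900 RPKM in control and silenced KYSE150 and 17.8 ± 2.32 and 22.9 ± 3.42 in control and silenced KYSE510. HIST2H2AA3 (chr1:149842188-149842736) and HIST2H2AA4 (chr1:149851061-149851624) are near-identical copies in an inverted repeat. Every 50-base window of the HIST2H2AA3 transcripts also occurs in HIST2H2AA4, so the split of reads between them is uncertain. Their values were 3.07 ± 0.661 and 2.08 ± 0.300 RPKM in control KYSE150 and 8.86 ± 1.10 and 3.80 ± 0.929 in control KYSE510. HIST3H2A (chr1:228456979-228457873), in the small HIST3 cluster, was at 16.6, 21.6 and 20.1 RPKM in the KYSE510 control libraries and at 0.0558, 0 and 0 in those of KYSE150.

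Among the 20 H2B genes, HIST1H2BK (chr6:27146418-27146798) stood far above the rest. It had 54.0, 49.9 and 84.1 RPKM in control KYSE150 and 148, 129 and 131 in control KYSE510. The next genes were HIST1H2BJ at 3.95 ± 0.296 and 2.83 ± 0.823 RPKM in the same groups, HIST1H2BC at 1.98 ± 0.306 and 4.48 ± 1.34, and HIST1H2BD at 4.98 ± 0.538 and 0.0907 ± 0.0493. The order of HIST1H2BJ, HIST1H2BC and HIST1H2BD thus differed between the lines, and 14 of the 20 genes were under 1 RPKM. The H4 signal was mostly HIST1H4I (chr6:27138588-27139881), at 11.0 ± 2.52 and 15.7 ± 2.64 RPKM in control and silenced KYSE150 and 21.8 ± 1.25 and 29.1 ± 5.31 in control and silenced KYSE510. HIST1H4K and HIST2H4A followed, at 1.72 ± 0.142 and 0.947 ± 0.175 RPKM in control KYSE150 and 4.62 ± 0.732 and 4.28 ± 0.196 in control KYSE510, and 12 of the 15 H4 genes were under 1 RPKM. The sequences of HIST1H4K and HIST2H4A are shared, to 100% and 97.5% of 50-base windows, with HIST1H4J and HIST2H4B, which makes their split uncertain too.

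**Figure D2:**
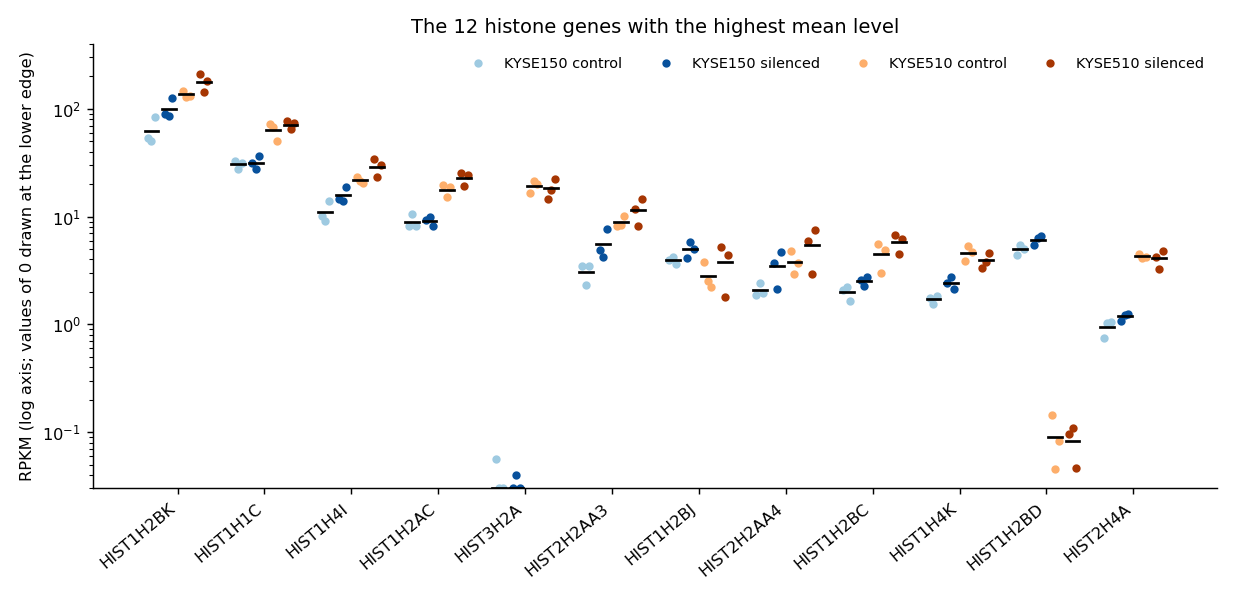
RPKM on a log axis of the 12 histone genes with the highest mean, with 1 point for each library and a bar at each group's mean. HIST3H2A lies at or near 0 in all KYSE150 libraries and between 14.7 and 22.5 RPKM in all KYSE510 libraries, and HIST1H2BD shows the opposite order.

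The main difference in these genes was between the lines. The test was limma on log2(RPKM + 0.5) for the 17823 genes with at least 0.5 RPKM in 3 or more libraries, which 32 of the 71 histone genes met (3 of H1, 13 of H2A, 9 of H2B, 3 of H3 and 4 of H4). A gene was called at a Benjamini-Hochberg adjusted p under 0.05 over all genes tested. In control cells, 22 of the 32 were higher in KYSE510, against 28.3% of all genes tested, and 4 were lower, against 33.7%. Of the 32, 10 met the filter in KYSE510 only, and all 10 are among the 22. A further 2, HIST1H2BD and HIST1H2AD, met it in KYSE150 only and are among the 4. The other 20 met it in both lines, with 12 higher and 2 lower. With no filter, 24 of the 71 were higher, against 16.7% of all 36815 genes with a read, and 9 were lower, against 17.6%. With the filter, the calls of higher level took in 2 of the tested H1 genes, 9 of H2A, 5 of H2B, 2 of H3 and all 4 of H4. These counts by type include genes that met the filter in KYSE510 only, among them HIST1H3C. The other H3 gene, HIST1H3J, shares its reads with HIST1H2AM, which is counted under H2A. The median of the 32 was 0.79 on the log2 scale, beside -0.07 over all genes tested. A gene that passed the filter only through the line in which it is high had to differ, so the counts and the median describe the tested genes and not all 71: over all 71, with no filter, the median was 0.18. The markers of other cells summed to 0.220 to 0.377 RPKM in control KYSE150 and 0.595 to 0.890 in control KYSE510, and their part in the difference was not tested.

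For genes that met the filter in 1 line only, the values below are from the limma fit with no filter, on the log2 scale. HIST3H2A showed the largest difference among the tested histone genes, 5.26 (adjusted p = 2.68e-09). It had 1341 reads in the 3 KYSE510 control libraries and 1 in those of KYSE150, a ratio of reads per total of 1104 with an exact 95% interval of 198 to 43642 (counting error only). HIST2H2AC followed with 1.81, 1.42 and 1.49 RPKM against 0, 0.250 and 0, a change of 1.85 (adjusted p = 0.00174) with no filter. HIST2H4A, HIST1H1B and HIST1H2AJ were higher by 1.73, 1.59 and 1.53 on the log2 scale, with adjusted p of 5.00e-07 for HIST2H4A with the filter, and 7.34e-04 and 0.00155 for the others with no filter in limma. The most abundant genes also differed: HIST1H2BK by 1.15 (SE 0.21, adjusted p = 5.36e-04), HIST1H1C by 1.03 (SE 0.14, adjusted p = 6.77e-05) and HIST1H4I by 0.97 (SE 0.17, adjusted p = 4.47e-04) in limma. In the opposite direction, HIST1H2BD had 275 reads in control KYSE150 and 6 in control KYSE510, a ratio of 55.7 with an exact 95% interval of 25.3 to 153. Its change was -3.21 (adjusted p = 1.34e-08) with no filter. HIST1H1E and HIST1H2AD were also lower in KYSE510, with changes of -0.73 and -0.67, with adjusted p of 0.00107 for HIST1H1E with the filter and 0.00887 for HIST1H2AD with no filter in limma. With voom on the recovered reads the changes of low genes were larger: 3.96 for HIST2H2AC, 3.04 for HIST1H1B, 2.37 for HIST1H2AJ, -5.57 for HIST1H2BD and -2.45 for HIST1H2AD. HIST1H2AG, at -0.55 (SE 0.22, adjusted p = 0.0481) in limma, lost its call under 11 alternatives, among them without KYSE150 control replicate 3 (-0.36), and was -0.90 with a pseudocount of 0.1 and -1.06 with voom.

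HIST1H2BD was not the only low gene in its part of chromosome 6. The stretch was picked after its values had been seen, so what follows is a description. From HIST1H2BD to HIST1H3E, chr6:26158146-26227473, lie 10 histone genes, and 7 of them had at least a 4-fold lower rate of reads in the 6 KYSE510 libraries than in the 6 of KYSE150. The 7 genes had 942 reads in KYSE150 and 20 in KYSE510. HIST1H3E, an H3 gene, had 84 reads against 0, HIST1H4E 57 against 4, HIST1H2AE 38 against 1, HIST1H2AD 24 against 2, HIST1H2BF 18 against 2 and HIST1H2BG 12 against 0. In control cells HIST1H3E was at least 13.4-fold higher in KYSE150, with the floor for 0 reads set at 3 reads over the group. The 3 others in the stretch did not share this: HIST1H2BE had 69 reads in KYSE150 and 75 in KYSE510, HIST1H3D 16 and 13, and HIST1H4D 1 and 2. HIST1H2BE, HIST1H3D and HIST1H2AD share exon bases with other listed genes, so their reads need not be their own. Outside the stretch both directions occurred. HIST1H1E, next to HIST1H2BD, was lower in KYSE510 as given above. Farther out, HIST1H2AC on that side and HIST1H2BH on the other had higher levels in KYSE510, with changes of 0.95 (SE 0.14, adjusted p = 1.22e-04) and 0.78 (SE 0.15, adjusted p = 6.91e-04) in limma. Between HIST1H3E and HIST1H2BH, HIST1H3F had 11 reads in control KYSE150 and 2 in control KYSE510, and HIST1H4F had 0 and 7.

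**Figure D3:**
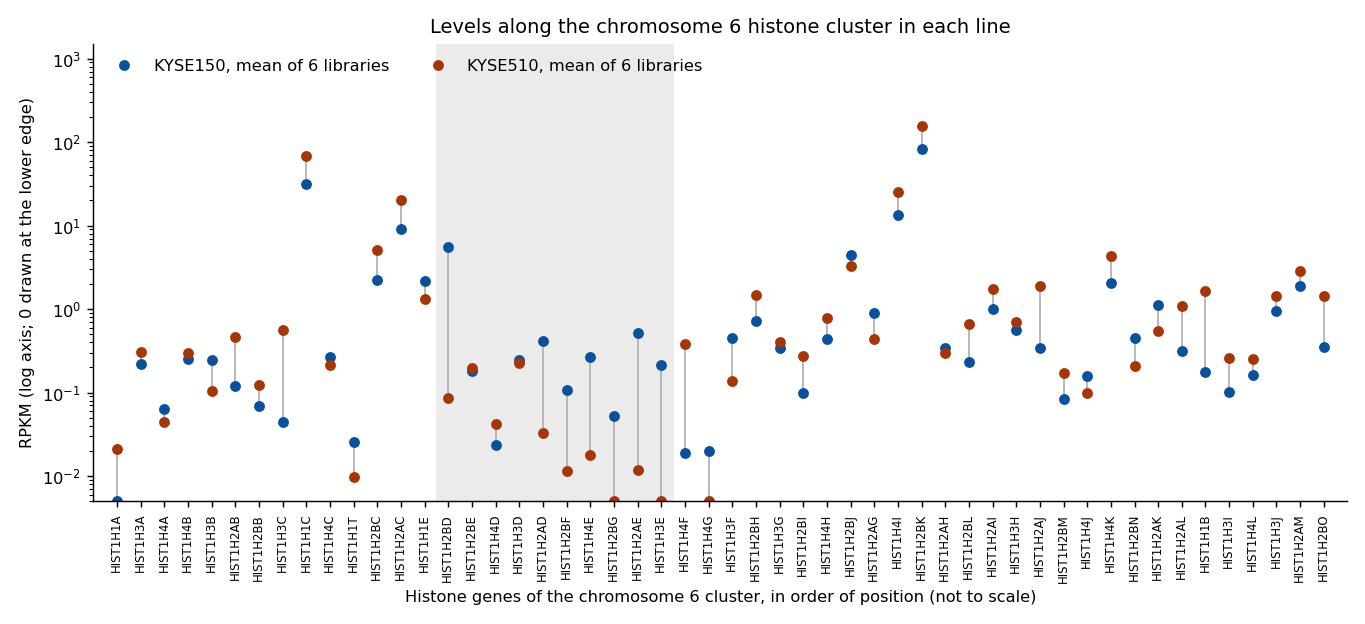
Mean RPKM over the 6 libraries of each line, on a log axis, for the 52 histone genes of chromosome 6 in order of position, with the stretch from HIST1H2BD to HIST1H3E shaded. In the shaded stretch 7 of 10 genes lie far lower in KYSE510, while genes outside it, such as HIST1H1C and HIST1H2AC, mostly lie higher in KYSE510.

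Histone genes often lie head to head, so that a pair shares the bases between its starts. By RefSeq starts on GRCh38.p14, 14 such pairs lay 193 to 287 bases apart, 13 of them of an H2A and an H2B gene. The members of a pair differed in mean level by 2.07-fold to 372-fold, with a median of 3.96-fold. The bases between 3 pairs are shown: HIST1H2BK and HIST1H2AH, and HIST3H2A and HIST3H2BB, because their levels differ so much, and HIST1H2BC and HIST1H2AC as a pair near the median that holds 2 of the abundant genes. They are from RefSeq, on the plus strand, with CCAAT or its complement ATTGG in capitals; the gene named first lies to the left on the minus strand.
Between HIST3H2A and HIST3H2BB, chr1:228457874-228458102, plus strand: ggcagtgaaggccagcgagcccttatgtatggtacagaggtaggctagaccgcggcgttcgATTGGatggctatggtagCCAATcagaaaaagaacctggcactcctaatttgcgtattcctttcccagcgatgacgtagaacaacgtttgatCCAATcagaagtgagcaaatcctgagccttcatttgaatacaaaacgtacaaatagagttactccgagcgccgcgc
Between HIST1H2BK and HIST1H2AH, chr6:27146859-27147105, plus strand: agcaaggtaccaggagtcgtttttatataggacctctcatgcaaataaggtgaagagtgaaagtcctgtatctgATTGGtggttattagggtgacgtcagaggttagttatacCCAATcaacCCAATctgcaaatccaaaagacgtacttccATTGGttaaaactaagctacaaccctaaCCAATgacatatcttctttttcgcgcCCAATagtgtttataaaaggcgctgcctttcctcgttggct
Between HIST1H2BC and HIST1H2AC, chr6:26123927-26124171, plus strand: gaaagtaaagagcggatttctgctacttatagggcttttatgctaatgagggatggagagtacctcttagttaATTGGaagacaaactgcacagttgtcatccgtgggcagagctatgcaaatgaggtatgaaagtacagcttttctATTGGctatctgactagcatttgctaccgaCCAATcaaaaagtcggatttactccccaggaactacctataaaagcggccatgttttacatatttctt
HIST3H2BB, which encodes an H2B, had 56 reads in control KYSE510 and 0 in control KYSE150, at least 15.4-fold higher with the floor at 3 reads over the group. It was thus at 0 in the control libraries in which HIST3H2A was at or near 0, at a mean of 0.145 RPKM over all libraries against 9.43. HIST1H2AH had 0.321 RPKM on average beside 119 for HIST1H2BK, and HIST1H2BC 3.71 beside 14.7 for HIST1H2AC. Both strands were searched for 3 motifs, none of which contains another: CCAAT, the TATA box TATAAA and the octamer ATTTGCAT. CCAAT was in 56 of 66 promoter windows of 300 bases of 62 histone genes (84.8%), against 34.6% of all 35116 windows. TATAAA was in 65.2% against 11.5%, and the octamer, known from H2B promoters, was in 37.9% against 1.77%. Windows of genes that lie head to head share bases, so the histone windows are not all separate observations. The bases between HIST3H2A and HIST3H2BB held 3 copies of CCAAT and none of the other motifs. Those between HIST1H2BK and HIST1H2AH held 6, 3 and 1 matches, counted on both strands. These TATAAA matches include a pair that overlaps on opposite strands, so they are not all separate sites. A match is a description of letters and not a bound site.

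HCP5 silencing changed none of the 32 tested genes past the threshold in limma. The background was small: 0.499% of all genes tested passed in KYSE150, 0.0393% in KYSE510 and 0.539% in the mean of both lines. At an unadjusted p under 0.05 there were 8, 4 and 7 of the 32 histone genes in these comparisons, against 18.1%, 6.35% and 11.5% of all genes tested, and voom on the recovered reads also called 0 in each. Libraries of the same replicate number tended to vary together, so the fit with the replicate number as a block is given too. In KYSE150 this did not hold for every library. Control replicate 2 correlated at 0.147 with silenced replicate 2 and at 0.184 with silenced replicate 1. With it, 5 histone genes were higher in silenced KYSE150, against 5.04% of all genes tested: HIST1H2BK, HIST2H2AA3, HIST1H4I, HIST1H2AK and HIST1H4H. With the block, 0 were called in KYSE510, where 0.0842% of all genes passed as higher, and 3 in the mean of both lines, where 2.06% did: HIST1H2BK, HIST1H4I and HIST2H2AA3. None was called lower. The silenced KYSE150 libraries held 26281327 to 28202422 reads and the controls 20035025 to 22700935, and the part of depth was not tested. The blocked fit has 4 residual degrees of freedom, against 8 without it. Without KYSE150 control replicate 3, the fit without a block called 2 genes in KYSE150, HIST1H2BK and HIST1H4I, and HIST1H2BK in the mean of both lines. The share of all genes called in that fit is not given here.

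HIST1H2BK had 54.0, 49.9 and 84.1 RPKM in control and 89.0, 86.6 and 127 in silenced KYSE150. All 3 silenced libraries lay above all 3 control libraries, the third control library lying close to the 2 lower silenced ones. In KYSE510 it had 148, 129 and 131 in control and 208, 144 and 181 in silenced cells, where the groups overlapped. Its log2 change was 0.70 (SE 0.21, adjusted p = 0.141) in KYSE150, 0.37 (SE 0.21, adjusted p = 0.864) in KYSE510 and 0.53 (SE 0.15, adjusted p = 0.167) in the mean of both lines in limma. With the replicate block the adjusted p was 0.0156, 0.153 and 0.0124, and over the alternatives the KYSE150 value lay between 3.63e-04 and 0.447, the KYSE510 value between 0.0195 and 1 and that of the mean between 1.04e-04 and 0.347. Without KYSE150 control replicate 3 the change in that line was 0.93 with an adjusted p of 0.0284 in limma. Silenced was higher than control in 6 of 6 pairs of the same number.

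HIST1H4I had 10.1, 9.11 and 13.9 RPKM in control and 14.6, 13.8 and 18.7 in silenced KYSE150, and 23.2, 21.6 and 20.7 in control and 33.9, 23.4 and 30.1 in silenced KYSE510. It was higher in 6 of 6 pairs, and the groups overlapped in KYSE150 and not in KYSE510. Its log2 changes were 0.50 (SE 0.17, adjusted p = 0.188) in KYSE150 and 0.40 (SE 0.17, adjusted p = 0.763) in KYSE510 in limma, with adjusted p of 0.0350 and 0.169 with the block. Over the alternatives the adjusted p lay between 0.00640 and 0.527 in KYSE150, and between 0.0256 and 1 in KYSE510. Without KYSE150 control replicate 3 the KYSE150 change was 0.67 with an adjusted p of 0.0399 in limma. HIST1H4I and HIST1H2BK are not independent in position. The RefSeq span of HIST1H2BK, chr6:27138293-27146858 on the minus strand, covers HIST1H4I, chr6:27138588-27139881 on the plus strand, and the ratio of their RPKM values was 5.34 to 6.77 in all 12 libraries.

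HIST2H2AA3 had 3.45, 2.31 and 3.45 RPKM in control and 4.92, 4.20 and 7.70 in silenced KYSE150, with no overlap. In KYSE510 it had 8.10, 8.36 and 10.1 and 11.7, 8.11 and 14.5, with overlap. The log2 changes were 0.75 (SE 0.24, adjusted p = 0.162) and 0.32 (SE 0.24, adjusted p = 0.930) in limma, with adjusted p of 0.0371 and 0.407 with the block. In KYSE150 the adjusted p over the alternatives was 0.0158 to 0.483. In KYSE510 the change was 0.14 without silenced replicate 3 and 0.54 without silenced replicate 2. In the mean of both lines HIST2H2AA3 had 0.53 (SE 0.17, adjusted p = 0.232) and HIST1H4I 0.45 (SE 0.12, adjusted p = 0.161) in limma, with adjusted p of 0.0487 and 0.0239 with the block; the alternatives spanned 0.0110 to 0.446 and 0.00101 to 0.332. Its copy HIST2H2AA4 had 0.59 (SE 0.31, adjusted p = 0.335) in KYSE150 and 0.40 (SE 0.31, adjusted p = 0.940) in KYSE510 and was called with neither fit, and its KYSE510 value was 0.15 to 0.76 with 1 library left out. HIST1H4H, at 0.289 ± 0.163 RPKM in control and 0.581 ± 0.169 in silenced KYSE150, had 0.46 (SE 0.16, adjusted p = 0.194) in limma and an adjusted p of 0.0418 with the block, within 0.0257 to 0.447 over the alternatives. Its change was 0.86 with a pseudocount of 0.1, 0.30 with a pseudocount of 1 and 1.09 with voom. HIST1H2AK had 7, 4 and 10 reads in control and 18, 12 and 15 in silenced KYSE150, and 4, 13 and 8 and 0, 5 and 2 in KYSE510. Its changes were 0.53 (SE 0.31, adjusted p = 0.381) in KYSE150 (adjusted p = 0.0437 with the block) and -0.80 (SE 0.31, adjusted p = 0.684) in KYSE510 (adjusted p = 0.0699 with the block) in limma. In KYSE150 the adjusted p over the alternatives was 0.0437 to 0.766, and the change was 0.34 without control replicate 2. In KYSE510 the adjusted p was 0.0699 to 1, and the change was -1.62 with a pseudocount of 0.1, -1.98 with voom, -0.52 with a pseudocount of 1 and -0.53 without silenced replicate 1. All 393 bases of HIST1H2AK lie inside exons of HIST1H2BN on the other strand, and whether the counting used strand is not given in the sources used here.

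**Figure D4:**
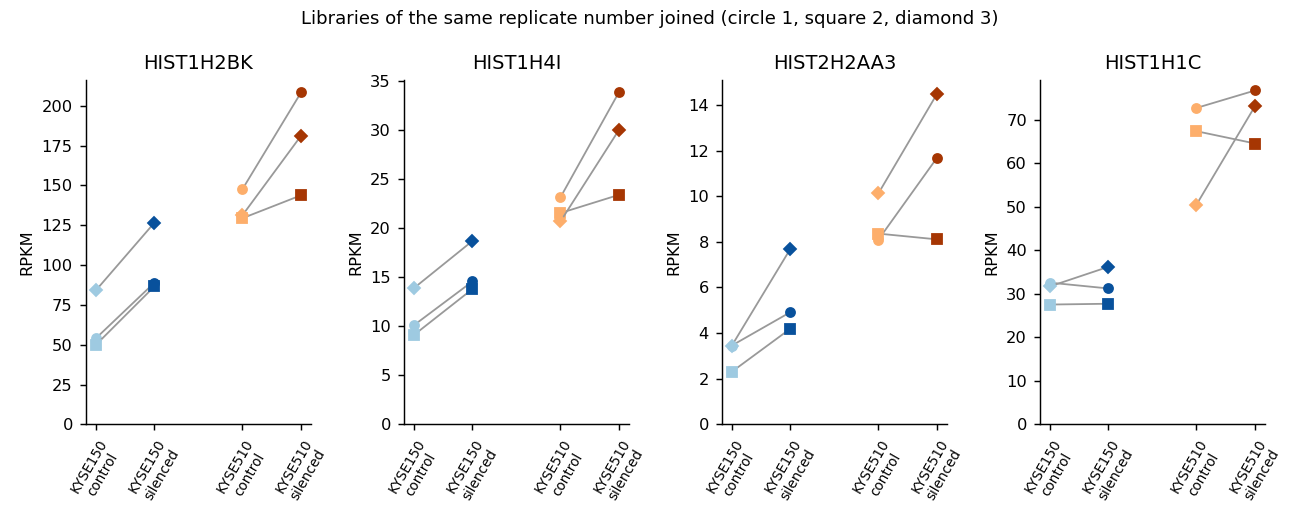
RPKM of 4 histone genes in control and silenced libraries, with libraries of the same replicate number joined and each axis starting at 0. All lines go up for HIST1H2BK and HIST1H4I, 5 of 6 go up for HIST2H2AA3, and those of HIST1H1C go both ways.

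No other tested histone gene passed in limma with or without the block when all libraries were used. Voom with the block, for which the share of all genes called is not given here, also called HIST1H2AC higher in KYSE510. Limma gave 0.36 there (SE 0.14, adjusted p = 0.699). Its adjusted p there was 0.0992 in limma with the block. In KYSE150 the next largest positive value among genes with at least 1 RPKM was HIST2H2BC, listed by RefSeq as a transcribed pseudogene, with 0.61 (SE 0.26, adjusted p = 0.260) in limma. The most negative of these were HIST1H1E with -0.41 (SE 0.15, adjusted p = 0.198), HIST1H2AM with -0.29 (SE 0.16, adjusted p = 0.364) and HIST1H2AJ with -0.25 (SE 0.27, adjusted p = 0.638). In KYSE510, among genes with at least 1 RPKM, the most negative were HIST1H2AJ with -0.26 (SE 0.27, adjusted p = 0.946), HIST1H4K with -0.21 (SE 0.14, adjusted p = 0.907) and HIST1H2BH with -0.19 (SE 0.15, adjusted p = 0.940) in limma. Below that level HIST1H2AK, given above, and HIST2H2AC, with -0.78 (SE 0.33, adjusted p = 0.749), were more negative. With 1 library left out at a time, the KYSE510 values were -0.40 to -0.07 for HIST1H2AJ, -0.32 to -0.11 for HIST1H4K and -0.30 to -0.09 for HIST1H2BH. In KYSE150 they were -0.52 to -0.08 for HIST1H2AJ and -0.41 to -0.18 for HIST1H2AM. HIST1H1C, the second most abundant histone gene, had 0.05 (SE 0.14, adjusted p = 0.905) in KYSE150 and 0.18 (SE 0.14, adjusted p = 0.940) in KYSE510 in limma. Of the 32, 24 had positive values in KYSE150 and 17 in KYSE510, with medians of 0.23 and 0.05 beside 0.08 and -0.02 over all genes tested. Groups did not overlap, with silenced higher, for 7 of 32 in KYSE150 and for 2 in KYSE510, HIST1H4I and HIST1H2BO, against 13.7% and 5.22% of all genes tested. The difference of the silencing effect between the lines passed for 0 of 32 and for 0% of all genes in limma. At an unadjusted p under 0.05 there were 3 of 32, against 12.2% of all genes tested, and voom on the recovered reads called 0. Its median was -0.14, beside -0.12 over all genes tested, and 0.01 after each library was centred on its median.

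**Figure D5:**
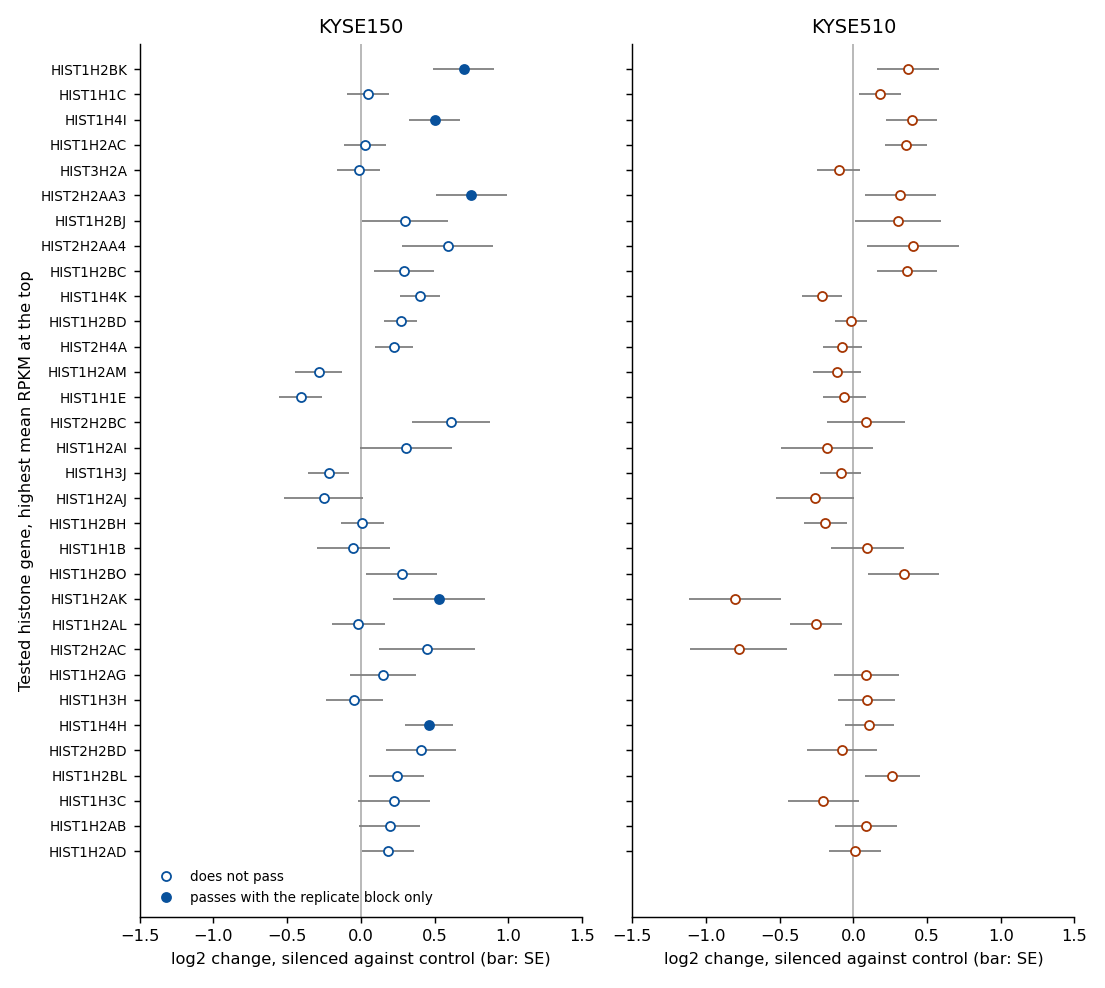
Log2 change in silenced against control cells for the 32 tested histone genes in KYSE150 (left) and KYSE510 (right), from the highest mean RPKM at the top to the lowest, with bars of 1 SE. The 5 filled points in KYSE150 passed with the replicate block and not without it, and in KYSE510 no point passed in either of these fits.

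Genes that act on histone messages and histones were set beside these values. Of 23 genes of histone gene transcription and message processing, 1 passed in the mean of both lines and was lower, NCBP2, a subunit of the nuclear cap-binding complex, with -0.31 (SE 0.05, adjusted p = 0.0189) in limma. ERI1, an exonuclease that trims histone messages, had -0.16 (SE 0.05, adjusted p = 0.187) and MIF4GD, a partner of SLBP, 0.18 (SE 0.07, adjusted p = 0.379). None of 12 replication-independent histone genes passed; CENPA, the centromeric H3, had 0.23 (SE 0.16, adjusted p = 0.665) in limma, H3F3B, which encodes H3.3, 0.10 (SE 0.07, adjusted p = 0.679) and H2AFV, a variant of H2A, 0.11 (SE 0.08, adjusted p = 0.688). None of 22 histone chaperone genes passed, and RBBP4, NASP and IPO4 had 0.18, -0.20 and -0.10. None of 31 genes of S phase and DNA replication passed, and CDK2, GINS1 and UHRF1 had 0.24, 0.18 and 0.11. At an unadjusted p under 0.05 there were 0 of the histone variants, 2 of the chaperones and 2 of the S phase genes. With the replicate block CDK2 passed (adjusted p = 0.0373) and none of the chaperones or variants did, though in KYSE150 alone the blocked fit called RBBP4 higher (adjusted p = 0.0368) and NASP and SSRP1 lower (adjusted p = 0.0345 and 0.0394). It also called MIF4GD and GINS1 higher and NCBP2 lower there (adjusted p = 0.0482, 0.0456 and 0.0243). The summed level of the S phase genes was 1144 to 1182 RPKM in control and 1157 to 1262 in silenced KYSE150. Their part in the histone values was not tested.

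Between the control lines, most of these lists held calls in both directions. Of the 31 S phase genes 9 were higher and 9 lower in KYSE510, and of the 23 processing genes 4 and 8. Of the 22 chaperones the counts were 4 and 6, and of the 12 replication-independent histones 5 and 2. Over all genes tested, 28.3% were higher and 33.7% lower. Among 20 non-coding RNAs without a poly(A) tail, 10 were tested, 0 were higher and 3 lower in KYSE510, and their summed level overlapped between the control groups, at 178 to 264 RPKM in KYSE150 and 144 to 238 in KYSE510. RPPH1, RNU11 and SCARNA2 had changes with silencing of -0.54, -0.44 and 0.16 in the mean of both lines, and none of the 10 passed in limma (1 at an unadjusted p under 0.05). Of the 9 squamous markers, TP63, the master regulator of squamous cells, passed with 0.32 (SE 0.06, adjusted p = 0.0483) in limma. KRT14 and DSG3 had 1.81 (SE 0.36, adjusted p = 0.0597) and 0.32 (SE 0.08, adjusted p = 0.111). With the block, 6 of the 9 were higher in silenced KYSE150, the comparison in which histone genes were also called, and 5 in the mean of both lines. Their summed level was 526 to 1160 RPKM in control and 826 to 2221 in silenced KYSE150, and their part in the histone values was not tested.

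Several values rest on reads that more than 1 gene can claim. In the table, 16 of the 71 genes, 6 of them tested, share exon bases with another gene. HIST1H3J and HIST1H2AM share 346 bases on the same strand, and their reads differed by at most 1 in each of the 12 libraries (17, 19 and 15 against 17, 20 and 15 in control KYSE150). The H3 level of HIST1H3J and the H2A level of HIST1H2AM cannot be told apart. HIST2H4A shares 173 bases with HIST2H3C on the other strand, and HIST1H2AD 385 bases with another listed gene. Over the whole table, of 255 genes with 20 or more reads on average that lie wholly inside exons of a gene on the other strand, 254 had no more reads than that gene. For such genes inside exons on the same strand it was 128 of 128. The reads of a gene inside another's exons on either strand, HIST1H2AK included, need therefore not be its own. By sequence, 50 of the 71 genes share under 10% of their 50-base windows with another histone gene and 14 share at least 50%, 7 of them tested. A gene with few reads is also imprecise: 3 reads on HIST1H2BK would be 0.279 to 0.393 RPKM, so for genes of that length levels below this are not told from 0 in a single library.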

How the data were processed

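RNA-seq libraries of 3 control and 3 HCP5-silenced samples of each line, KYSE150 and KYSE510, were analysed. The authors deposited RPKM values per gene. HISAT2, DESeq and build GRCh38 are named in the submitters' processing notes, with no versions and no stated role, and how reads were counted is not given in the sources used here. RPKM multiplied by exon length and library total gave whole reads for 100% of values (within 0.05 of a whole number), and totals were recovered from the same values.

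Genes with RPKM of at least 0.5 in 3 or more libraries were tested with limma 3.58.1 in R 4.3.3 on log2(RPKM + 0.5), with 4 group means, a moderated spread with a trend, two-sided p-values and Benjamini-Hochberg adjustment over all 17823 genes tested. Fold changes on this scale understate those of low genes. The code was tested on simulated data. Library totals were 20035025 to 28202422 reads, and intervals and floors cover counting error only.

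Replicate numbers come from the sample titles. Over genes, deviations from the group mean correlated at 0.147 to 0.415 for control and silenced libraries of the same number in all 6 pairs. For other numbers they correlated at -0.385 to 0.184, so the ranges overlap. The numbers were taken to pair the libraries, which is inferred from these same data. The fit with the number as a block is given where it changes a call. The other settings tried were the pseudocount, no filter, no trend, centred libraries, voom on the recovered reads, each library left out, and the 6 libraries of a comparison alone. Voom with the block was added after seeing the data.

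Named are the 12 genes with the highest mean, in each silencing comparison the genes that passed or else the 3 largest positive and negative values among genes with at least 1 RPKM, the 5 largest line differences each way, and up to 3 genes of each other list by p. HIST1H4H and HIST1H2AK, called only with the block, were named after their values were seen. So were HIST1H2BO, SSRP1, HIST1H1A, HIST1H1T, the pair HIST3H2BB and HIST1H2AH, and the genes of the chromosome 6 stretch and beside it. The histone genes and all lists were chosen with earlier results of these data known. All 71 histone names matched GENCODE 29 and RefSeq on GRCh38.p14, of which 62 had a promoter window. No protein sequences were used here.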

Additional observations from a re-analysis of the deposited data

How the results depend on the processing

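In KYSE150 the count of histone genes called with silencing was 0 of 32, 5 with the replicate block, 4 with voom on the recovered reads and the replicate block, and 0 to 2 with each library left out in turn, the 2 arising without KYSE150 control replicate 3. In KYSE510 it was 0 throughout except 3 with voom and the block (HIST1H2BK, HIST1H4I and HIST1H2AC). In the mean of both lines it was 0, 3 with the block, 3 with voom and the block, and 0 to 1 with each library left out. For the difference between the lines it was 0, and 1 with voom and the block (HIST1H2AK). No share over all genes tested is given for voom with the block or with a library left out. Those counts therefore cannot be read as particular to the histone genes. The replicate block changed no other call of a histone gene. The cause of these shifts was not tested. The median change of the tested genes in KYSE150 was 0.23, and 0.10 with libraries centred. For the difference between the lines it was -0.14, -0.28 with a pseudocount of 0.1, and 0.014 with libraries centred, which also takes out the -0.12 shift of all genes. Between the control lines it was 0.79, 1.04 with a pseudocount of 0.1, 0.62 with a pseudocount of 1, 0.18 with no filter (71 genes), 1.10 with voom, and 0.95 with only the 6 control libraries (27 genes). The 26 calls between the lines were 33 of 71 with no filter, 24 higher and 9 lower, against 16.7% and 17.6% of all genes. No histone gene named by the rule changed direction in its comparison under any setting run. Of the 71 genes, 39 did not reach the filter on RPKM, and 17 had at most 20 reads in all.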
